A study of Mus musculus with 13 samples.

Results

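The 10 genes described here carry the calcium cycle of the cardiac muscle cell. They are Cacna1c, Ryr2, Casq2, Trdn, Jph2, Hrc, Atp2a2, Pln, Sln and Slc8a1, chosen by name from 36109 genes with values, and for each the estimated counts and the abundances in TPM (scaled for transcript length and library size) were summed over its transcripts. In aortic endothelial cell (EC) libraries of Hmox2-/- mice all 10 had a negative log2 fold change, that of Slc8a1 only -0.05. Of all 15301 genes tested there, 7867 were negative. Of the 10 genes, 6 were called lower than in Hmox2+/+ mice, where 8.06% of all genes tested were called lower. In heart tissue of the same genotypes 9 could be tested, Casq2 was higher, Slc8a1 was lower, and the other 7 did not pass the test, where 16.2% of all genes were called lower and 17.2% higher, so that these 2 calls are near the background.

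RNA was measured in 13 libraries of mice that breathed room air. Heart tissue gave 4 Hmox2+/+ libraries (heart WT 1 to 4) and 3 Hmox2-/- libraries (heart KO 1 to 3), and aortic ECs gave 3 Hmox2+/+ (EC WT 1 to 3) and 3 Hmox2-/- libraries (EC KO 1 to 3). Hmox2 encodes heme oxygenase 2, its deletion is carried by every cell of the Hmox2-/- mice, and the Hmox2+/+ mice were their wild-type littermates. Heart RNA came from pulverized frozen whole hearts, whereas aortic EC RNA was released by flushing lysis reagent through the aortic lumen, with no sort of cells, and the sequenced mice of all groups were described as young, with no sex given in the sources used here.

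Each heartbeat begins with calcium entry through the L-type channel (Cacna1c is its pore subunit), and this calcium opens the ryanodine receptor (Ryr2), the release channel of the sarcoplasmic reticulum, which is the calcium store of the muscle cell. Inside the store calcium is held by calsequestrin 2 (Casq2) and by the histidine-rich calcium binding protein (Hrc), triadin (Trdn) ties calsequestrin to the release channel, and junctophilin 2 (Jph2) holds the store close to the cell membrane. The muscle relaxes when the pump SERCA2 (Atp2a2) returns calcium to the store, under the brake of the small membrane proteins phospholamban (Pln) and sarcolipin (Sln), and when the sodium-calcium exchanger (Slc8a1) carries the rest out of the cell.

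The proteins that regulate SERCA2 are among the smallest that a muscle cell makes, which is why their coding sequences are shown in full. Phospholamban has 52 residues and sarcolipin 31, and both slow the pump. Strit1 encodes DWORF, a micropeptide of 34 residues that is known to relieve the pump from this brake, and it is shown because it had the largest change among the other calcium handling genes in heart tissue. In the 3 sequences below the start and stop codons are in capitals. They were read from GENCODE M39 on GRCm39, where Pln-201 is coded at chr10:53219960-53220118 (plus strand, within the span of Cep85l, which lies on the other strand), Sln-201 at chr9:53760757-53760852 (plus strand) and Strit1-201 between chr3:63388711-63391248 (minus strand).
Pln-201: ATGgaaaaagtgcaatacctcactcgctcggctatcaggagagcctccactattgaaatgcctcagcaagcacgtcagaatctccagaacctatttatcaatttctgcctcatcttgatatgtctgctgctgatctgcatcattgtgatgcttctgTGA
Sln-201: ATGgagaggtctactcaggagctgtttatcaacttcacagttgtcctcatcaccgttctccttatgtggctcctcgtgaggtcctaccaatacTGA
Strit1-201: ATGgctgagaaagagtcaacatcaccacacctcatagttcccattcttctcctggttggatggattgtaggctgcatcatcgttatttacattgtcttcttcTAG

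Atp2a2 makes 2 forms of the pump that differ at the end of the protein, and the deposited values separate them. Atp2a2-202 codes for 998 residues, the form known as SERCA2a of heart and slow muscle, and Atp2a2-201 for 1044 residues, the form known as SERCA2b that most cell types use. The forms share their first 2983 coding bases. The last 30 of these are in lower case below, and the bases that belong to 1 form are in capitals, 14 in Atp2a2-202 (chr5:122592354-122592367, minus strand of GRCm39) and 152 in Atp2a2-201 (chr5:122595214-122595365, minus strand).
Atp2a2-202: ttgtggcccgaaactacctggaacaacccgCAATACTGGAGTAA
Atp2a2-201: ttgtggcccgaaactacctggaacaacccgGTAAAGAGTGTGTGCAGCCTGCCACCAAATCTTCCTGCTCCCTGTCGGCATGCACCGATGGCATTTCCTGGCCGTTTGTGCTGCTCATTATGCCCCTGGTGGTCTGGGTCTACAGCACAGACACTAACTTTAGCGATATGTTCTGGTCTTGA

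Promoters were looked at because 10 of 10 genes had a negative fitted fold change in aortic ECs, as had 7867 of all 15301 genes tested. Of the 10 genes, 6 were called lower, where 8.06% of all genes were. RefSeq promoter windows (GRCm38.p6, 250 bases before to 50 after the start of the transcript) were found for 7 of the 10 genes, with 10 windows in all. The E-box CANNTG, the letters that myogenic basic helix-loop-helix factors are known to bind, was in 10 of the 10 windows and in 72.3% of the 32851 windows of all genes. The Jph2 windows overlap and hold the same E-box, and Cacna1c gave several windows, so the 10 are not independent. GATAA was in 3 of the 10 and in 25.4% of all, TATAAA in 1 of the 10 and in 13.6% of all, and CATTCC in 0 of the 10 and in 14.7% of all, both strands being searched. The window of Casq2 (chr3:102086165-102086464, plus strand) is printed because Casq2 was called in both tissues, with its E-boxes in capitals. These matches describe letters only.
Casq2: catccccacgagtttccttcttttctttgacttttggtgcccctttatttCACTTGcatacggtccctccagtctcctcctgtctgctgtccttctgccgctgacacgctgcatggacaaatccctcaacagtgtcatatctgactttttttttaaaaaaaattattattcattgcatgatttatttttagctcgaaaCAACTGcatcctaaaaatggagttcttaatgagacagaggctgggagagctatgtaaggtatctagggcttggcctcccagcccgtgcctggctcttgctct

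Libraries held 26067147 to 31619776 estimated counts, except heart WT 1 with 7268626. Hmox2 was 37.3 to 42.5 CPM (counts scaled to the normalized library size) in heart WT and 7.53 to 8.90 CPM in heart KO, and 63.9 to 76.2 CPM in EC WT and 12.6 to 14.7 CPM in EC KO. The Y-linked gene Ddx3y was at 1.03 CPM in EC KO 2, at 0.92 CPM in EC KO 3 and at 37.0 to 86.5 CPM in the other 11 libraries. In EC WT it was at 61.7 to 66.8 CPM, so in aortic ECs sex, as this gene marks it, is partly confounded with genotype. In heart KO it was at 37.0 to 50.9 CPM. By this gene EC KO 2 and EC KO 3 came from other mice than the heart KO libraries. Mitochondrially encoded genes held 37.6% to 44.3% of the counts in heart WT and 22.5% to 27.2% in heart KO. The series describes aortic ECs and heart tissue as matched, but no label ties a heart library to an EC library of one mouse. Every test, those between tissues included, therefore took the libraries as independent, and p-values measure the spread between these libraries.

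In TPM, the unit that allows genes to be compared per length, the pump and its brake were the most abundant of the 10 genes in heart WT (n = 4). Atp2a2 was at 3095 ± 352 TPM (SD) and Pln at 2774 ± 113 TPM, and their ranges over libraries overlapped. The store proteins followed, Hrc at 350.1 ± 39.1 TPM and Casq2 at 302 ± 38.8 TPM, again with overlapping ranges. Trdn was at 207 ± 7.63 TPM, below Casq2 and above Ryr2 in every library. Ryr2, at 119 ± 19.0 TPM, overlapped with Jph2 at 91.8 ± 13.8 TPM, and Jph2 with Slc8a1 at 64.9 ± 9.18 TPM. Cacna1c, at 32.4 ± 3.37 TPM, lay below Slc8a1 in every library. Sln was at 0 to 0.24 TPM, from 0 to 5 counts per library.

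In EC WT (n = 3) the same genes were present at a small part of these levels, and Atp2a2 again led with 50.3 ± 4.62 TPM. Pln was next with 11.8 ± 10.4 TPM, a spread nearly as large as its mean, and Jph2 with 10.4 ± 2.93 TPM. The other 7 genes had means of 0.52 TPM (Ryr2) to 3.67 TPM (Slc8a1). The mean TPM in heart WT was 229.9-fold that in EC WT for Ryr2, 236-fold for Pln, 191-fold for Casq2, 139.5-fold for Hrc and 136-fold for Trdn. It was 61.5-fold for Atp2a2, 26.0-fold for Cacna1c, 17.7-fold for Slc8a1 and 8.82-fold for Jph2. Sln alone was higher in EC WT, at 1.12 to 3.47 TPM. Tissue and RNA kit differed together, so their parts in these folds cannot be told apart.

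**Figure D1:**
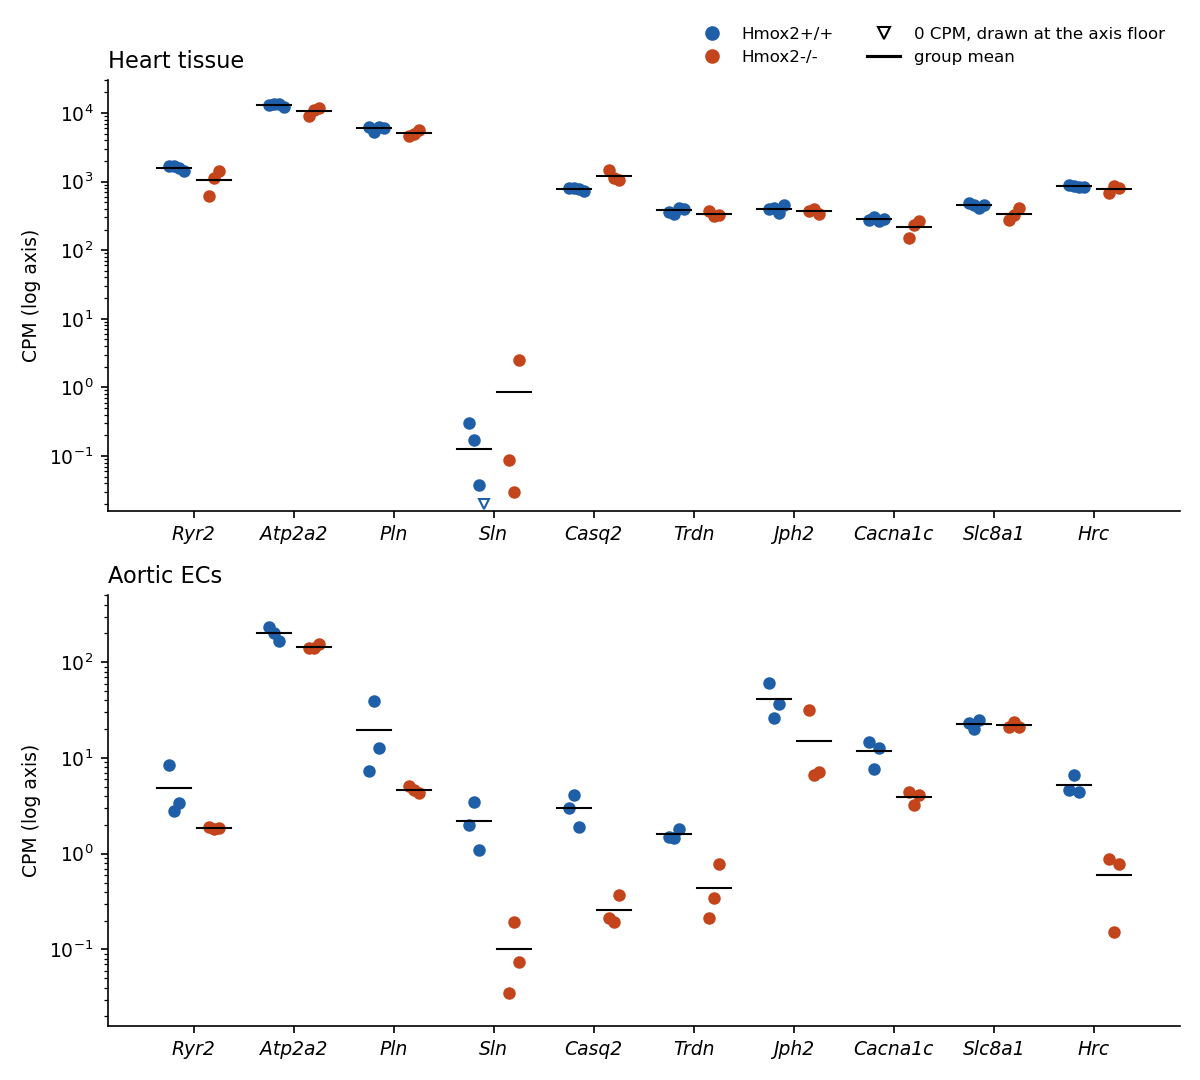
CPM (log axis) of the 10 genes in each heart library (upper panel) and each aortic EC library (lower panel), with a point per library, blue for Hmox2+/+ and red for Hmox2-/-, and a black line at the group mean. In aortic ECs the 3 Hmox2-/- libraries lie below the 3 Hmox2+/+ libraries for every gene but Jph2 and Slc8a1. In heart tissue the Hmox2-/- libraries lie above for Casq2 and below for Ryr2, Atp2a2, Cacna1c and Slc8a1. For the other genes of the heart panel the groups overlap. The share of all genes that separate in this way was not counted.

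The heart comparison asks how the calcium handling genes stand in the myocardium of mice without Hmox2. Of the 9 genes tested, 1 was called lower and 1 higher in heart KO at an adjusted p of at most 0.05 (edgeR quasi-likelihood test, Benjamini-Hochberg over 13816 genes), where 16.2% of all genes were called lower and 17.2% higher. No gene of the 10 passed the study's further criterion of a 2-fold change downwards, which 4.05% of all genes met. In bulk RNA, fewer cells of a type and less RNA per cell cannot be told apart. The median log2 fold change of the 9 genes was -0.23, against -0.01 over all genes tested. Of the 9 values 8 were negative, as were 7019 of the 13816 values of all genes tested. The direction depended on the unit. Mean TPM was lower in heart KO for Ryr2 (98.6, against 119 in heart WT) and Slc8a1 (63.6 against 64.9). It was higher for Casq2, Pln (3140 against 2774), Atp2a2 (3170 against 3095), Trdn, Jph2 and Hrc. For Cacna1c it was 32.4 in both groups. Without heart KO 3 there were 6 calls, with Ryr2, Atp2a2, Pln and Cacna1c added, but calls over all genes also rose, from 4618 of 13816 genes to 5686 of 14098, and without heart WT 1, heart WT 2, heart WT 4, heart KO 1 or heart KO 2 Casq2 alone was called.

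Casq2, the calcium buffer of the store, was 811, 815, 768 and 735 CPM in heart WT 1 to 4 and 1466, 1137 and 1037 CPM in heart KO 1 to 3. Every heart KO library was above every heart WT library, and heart KO 1 was the highest. The heart KO mean was 155% of the heart WT mean (log2 fold change 0.63, SE 0.12, edgeR adjusted p = 0.00364). Casq2 was called under each of the 16 alternatives that were run for it in heart tissue, with log2 fold changes of 0.48 to 0.74.

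Slc8a1, the exchanger that exports calcium, was 483, 459.6, 411 and 459 CPM in heart WT and 274, 329.6 and 407 CPM in heart KO. The groups did not overlap, but heart KO 3 lay just under the lowest heart WT library. The log2 fold change was -0.43 (SE 0.13, edgeR adjusted p = 0.0267), and the call was lost under 8 of 16 alternatives. With an offset for the trend of each library with transcript length and GC content, the log2 fold change of Slc8a1 was -0.01 (adjusted p = 0.909).

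Ryr2, the release channel, had the widest relative spread of the 9 genes tested in heart KO. It was 1664, 1685, 1562 and 1424 CPM in heart WT and 616, 1138 and 1406 CPM in heart KO. All heart KO libraries lay below all heart WT libraries, heart KO 1 by far the lowest and heart KO 3 only just below. Its change (log2 -0.59, SE 0.22, edgeR adjusted p = 0.0559) did not pass the threshold, and with the offset for length and GC content it was -0.00 (adjusted p = 0.989). Without heart KO 3 the log2 fold change of Ryr2 was -0.85 (adjusted p = 0.00585), and without heart KO 1 it was -0.31 (adjusted p = 0.0538).

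Cacna1c, the entry channel, was 277, 299.6, 269 and 287 CPM in heart WT and 149, 234 and 269 CPM in heart KO, where the order of the 3 libraries was that of Ryr2. Its log2 fold change was -0.38 (SE 0.16, edgeR adjusted p = 0.0945). The offset for length and GC content moved it to 0.02 (adjusted p = 0.912).

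Atp2a2, the pump, was 12864, 13394, 13359 and 12152 CPM in heart WT and 8915, 10906 and 11914 CPM in heart KO, without overlap. Its log2 fold change was -0.29 (SE 0.11, edgeR adjusted p = 0.0627). Pln, the brake of the pump, was 6167, 5266, 6188 and 6136 CPM in heart WT and 4609.5, 4920.3 and 5713 CPM in heart KO. Heart WT 2 stood apart from the other heart WT libraries and lay among the heart KO values. The log2 fold change of Pln was -0.23 (SE 0.11, edgeR adjusted p = 0.129).

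Trdn, Jph2 and Hrc had the smallest differences in heart tissue, and their groups overlapped. Trdn was 332 to 416 CPM in heart WT and 319 to 374 CPM in heart KO (log2 fold change -0.17, edgeR adjusted p = 0.258). Jph2 was 354 to 456 and 339 to 398 CPM (-0.13, adjusted p = 0.361), and Hrc 823 to 901 and 687 to 867 CPM (-0.12, adjusted p = 0.384). Hrc and Casq2, which both buffer calcium inside the store, thus had log2 fold changes of opposite sign, of which only that of Casq2 passed.

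Heart libraries of Hmox2-/- mice showed a trend with transcript length over all genes. The median log2 fold change was 0.52 in the decile of genes with the shortest transcripts and -0.46 in the decile with the longest, which holds Ryr2, Cacna1c and Slc8a1. Relative to the heart WT mean, the median of the longest decile minus that of the shortest was -1.39 in heart KO 1, -0.90 in heart KO 2 and -0.42 in heart KO 3, and -0.04 to 0.03 in heart WT 1 to 4. Ryr2, Cacna1c, Slc8a1 and Atp2a2 had the same order of libraries, heart KO 1 lowest and heart KO 3 highest of heart KO, and Casq2, in a middle decile, was highest in heart KO 1. With the offset Casq2 was at 0.68 (edgeR adjusted p = 0.00124), whereas Pln, Trdn and Jph2 went to 0.01, 0.07 and 0.03. Atp2a2 stayed negative at -0.16 (edgeR adjusted p = 0.136), and Hrc went from -0.12 to -0.20 (adjusted p = 0.144). What the trend comes from was not tested.

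**Figure D2:**
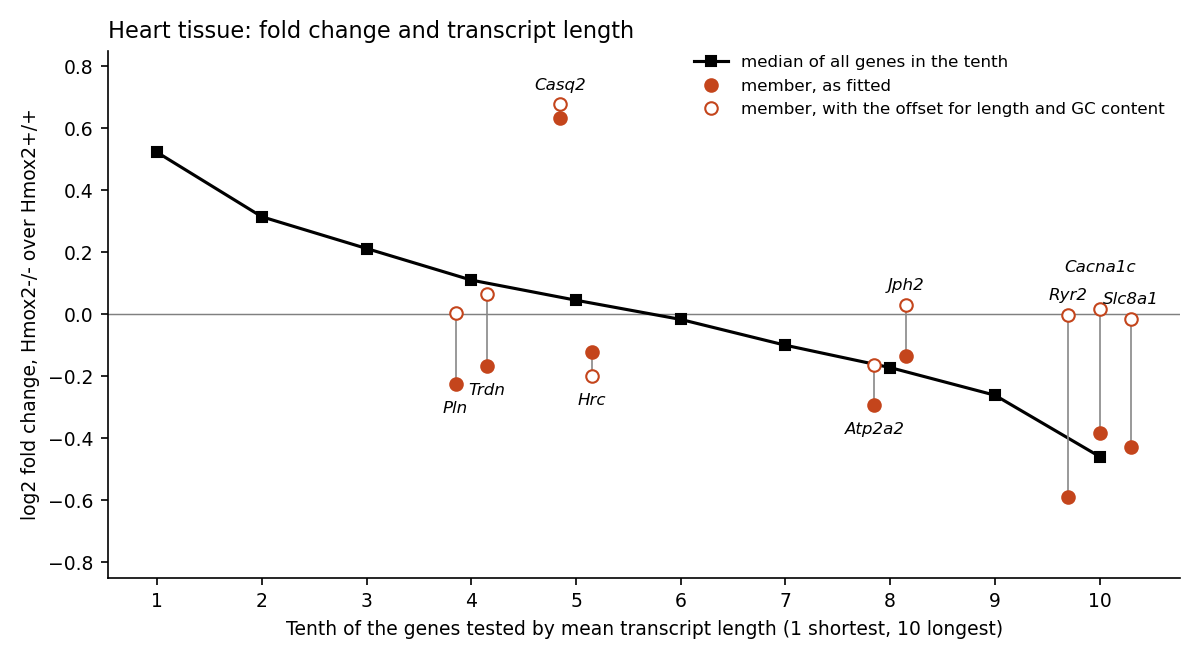
Log2 fold change in heart tissue (Hmox2-/- over Hmox2+/+) against the decile of transcript length, with black squares for the median of all genes tested in each decile and red points for 9 calcium handling genes, filled as fitted and open with the offset for length and GC content. The median falls from 0.52 to -0.46, the 3 genes of the longest decile move to between -0.01 and 0.02 with the offset, and Casq2 is at 0.63 and 0.68.

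**Figure D3:**
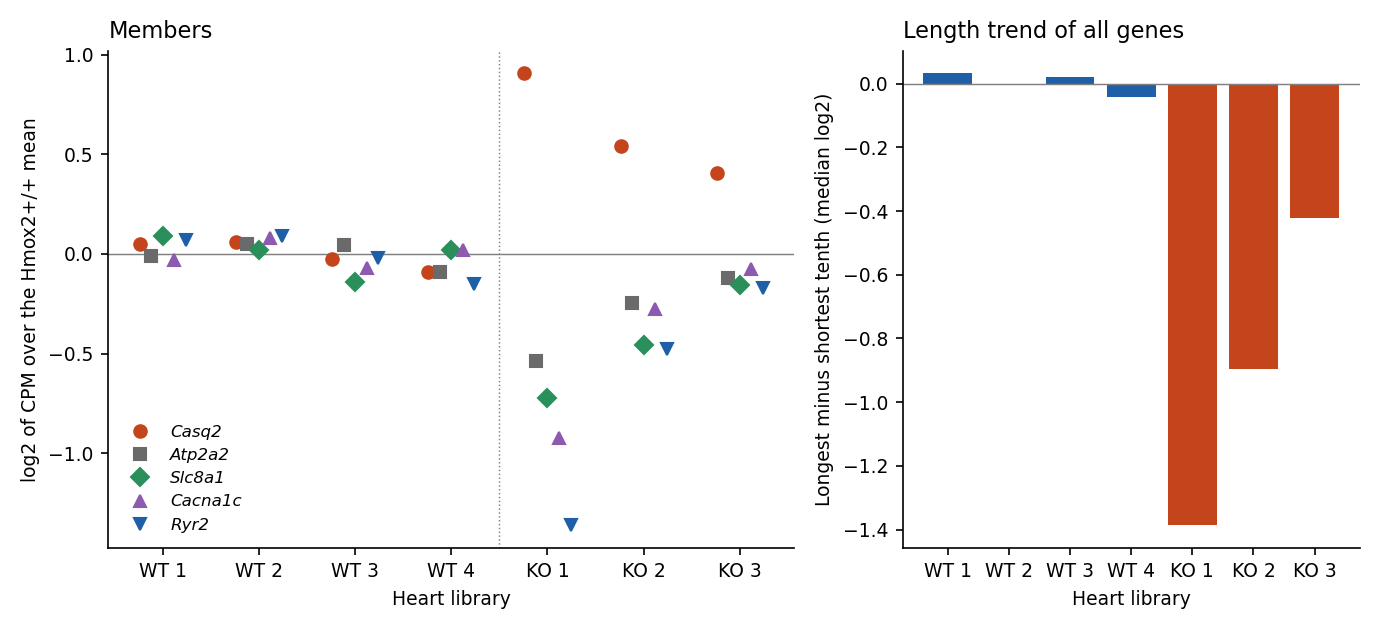
Left, log2 of the CPM over the Hmox2+/+ mean for 5 genes in each heart library, offset sideways to keep points apart. Right, the length trend of each heart library, as the median log2 value (against the Hmox2+/+ mean) of the longest decile of genes minus that of the shortest. The 4 WT libraries lie near 0 in both panels and heart KO 1 is the farthest from it.

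Markers were compared with the label whole heart. The summed level of 10 cardiomyocyte markers was 48118 to 54163 CPM in heart WT and 50638 to 57337 CPM in heart KO. Of these 10, 4 were called higher and 1 lower, where 17.2% and 16.2% of all genes were. The 4 ventricular markers summed to 9395 to 9801 CPM in heart WT and 11182 to 17309 CPM in heart KO, with 2 called higher. Markers of the atrium were at or near 0 for a heart that includes its atria. Myl7 was at 0.50 to 1.42 CPM in heart WT, Myl4 at 0.74 to 1.52 CPM, and Bmp10 at 0 in 6 of the 7 heart libraries. Of the atrial list, Nppa (472 to 654 CPM in heart WT and 347, 253 and 179.7 CPM in heart KO) and Kcnj3 (78.2 to 92.6 CPM in heart WT) were present. Sln, which is known in the mouse as an atrial gene, was 0.30, 0.17, 0.04 and 0 CPM in heart WT and 0.09, 0.03 and 2.48 CPM in heart KO. Heart KO 3 held 83 of the 87 Sln counts of heart KO, and it also had the highest Myl7 and Myl4, both at 13.2 CPM, but the lowest Nppa and the lowest sum of the 5 atrial markers (293 CPM, against 422 and 333 CPM in heart KO 1 and heart KO 2). Sln did not pass the filter on low counts in heart tissue, and which parts of the heart each library held was not tested. The erythroid markers summed to 183 to 341 CPM in heart WT and 887 to 1456 CPM in heart KO, with 5 of 5 called higher.

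The other genes of calcium handling were taken from a hand-written list of 48, of which 47 were tested in heart tissue, and 9 were called lower and 10 higher. Shares called in the whole table were 16.2% and 17.2%, as above. The largest change was that of Strit1, which encodes the pump activator DWORF. Strit1 was 5.65, 4.54, 7.73 and 6.02 CPM in heart WT and 113, 57.1 and 37.9 CPM in heart KO (log2 fold change 3.53, SE 0.33, edgeR adjusted p = 4.10e-05). The lowest heart KO library was above every heart WT library, the order of the heart KO libraries followed the length trend, and the transcript is 243 bases long. With the offset for length and GC content the log2 fold change of Strit1 was 2.78 (adjusted p = 3.28e-06), and it was called under 16 of 16 alternatives.

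S100a1, which encodes a calcium sensor of the release channel and the pump, rose by a log2 fold change of 0.84 (edgeR adjusted p = 0.00487), from 321 to 361 CPM in heart WT to 821, 587 and 426 CPM in heart KO. With the offset it was 0.27 (adjusted p = 0.0441). Mcub, which encodes the inhibitory subunit of the mitochondrial calcium uniporter, rose (2.02, adjusted p = 0.00746) from at most 0.42 CPM to 0.78 to 1.27 CPM. It overlaps Casp6 on the other strand, and S100a1 overlaps S100a13 in the same way, so reads of these pairs may be shared.

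Of the genes of this list that fell in heart tissue, Casq1, the calsequestrin of skeletal muscle, had the largest change, from 7.82 to 11.7 CPM in heart WT to 2.96 to 3.97 CPM in heart KO (log2 fold change -1.55, edgeR adjusted p = 1.87e-04). Casq1 and Casq2, which do the same task in skeletal and cardiac muscle, therefore moved in opposite directions. The 9 skeletal muscle markers summed to 124 to 256 CPM in heart WT and 54.0 to 101 CPM in heart KO, without overlap, and their part in the Casq1 difference was not tested. The log2 fold changes of Ryr3 (another ryanodine receptor), Cacna1d and Cacna1g (other calcium channels of the membrane) and Ppp1r3a (a phosphatase subunit that binds glycogen and the store) were -1.16 (edgeR adjusted p = 0.0141), -1.06 (0.0309), -0.80 (0.00174) and -0.75 (0.0142). With the offset that of Ppp1r3a was 0.00464 (adjusted p = 0.980).

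The aortic EC comparison asks how the same genes stand in RNA flushed from the aortic lumen, with no sort of cells, in mice without Hmox2. Of the 10 genes tested, 6 were called, each lower in EC KO (edgeR quasi-likelihood test, Benjamini-Hochberg over 15301 genes), against 8.06% of all genes called lower and 18.1% called in either direction. All 6 also met the criterion of a 2-fold change downwards, against 3.89% of all genes. At an unadjusted p under 0.05 there were 8. The median log2 fold change of the 10 genes was -1.71, against -0.02 over all genes tested. The calls depended on the libraries: without EC KO 3, 2 remained (Casq2 and Trdn), and with EC KO 1 alone against EC WT, the libraries in which Ddx3y exceeded 10 CPM, 0 were called by edgeR and 5 had an unadjusted p under 0.05, with all 10 log2 fold changes still negative, but in that fit only 49 of 16390 genes were called, so the 0 says little of these genes. Without EC KO 3, 638 of 15679 genes were called, against 2766 of 15301 with it. In the fit of EC KO 1 alone against EC WT, EC KO 1 is assumed to vary like the EC WT libraries.

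The store proteins Casq2, Hrc and Trdn were each called lower. Casq2 was 3.03, 4.11 and 1.92 CPM in EC WT 1 to 3 and 0.213, 0.192 and 0.368 CPM in EC KO 1 to 3, from 62 to 123 and 5 to 10 counts. Every EC KO library was far below the lowest EC WT library. The log2 fold change was -3.53 (SE 0.46, edgeR adjusted p = 0.00489). Hrc was 4.61, 6.65 and 4.42 CPM in EC WT and 0.885, 0.153 and 0.772 CPM in EC KO (log2 fold change -3.10, SE 0.54, adjusted p = 0.0123). Trdn was 1.51, 1.47 and 1.82 CPM in EC WT and 0.213, 0.345 and 0.772 CPM in EC KO, and its change (log2 -1.85, SE 0.51, adjusted p = 0.0437) was close to the threshold and lost when any of 5 single libraries was left out.

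Sln was the gene with the largest fold. It was 1.99, 3.48 and 1.08 CPM in EC WT (54, 104 and 35 counts) and 0.0354, 0.192 and 0.0736 CPM in EC KO (1, 5 and 2 counts). The EC KO mean was 4.59% of the EC WT mean, and the fitted log2 fold change was -4.40 (SE 0.71, edgeR adjusted p = 0.00919), a value that rests on 8 counts in EC KO. Pln was 7.35, 39.3 and 12.6 CPM in EC WT and 5.10, 4.64 and 4.27 CPM in EC KO. The groups did not overlap, but EC WT 1 was nearer to EC KO than to EC WT 2, and its change (log2 -2.08, SE 0.57, edgeR adjusted p = 0.0433) lost the call without EC KO 1, without EC KO 2 or without EC KO 3. Without EC WT 2 it was -1.10 (adjusted p = 0.0480).

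Of the channels, Cacna1c was called and Ryr2 was not. Cacna1c was 14.7, 7.65 and 12.7 CPM in EC WT and 4.43, 3.22 and 4.08 CPM in EC KO (log2 fold change -1.58, SE 0.28, edgeR adjusted p = 0.0121). Ryr2 was 8.38, 2.81 and 3.43 CPM in EC WT and 1.91, 1.80 and 1.84 CPM in EC KO (-1.39, SE 0.43, adjusted p = 0.0630). EC WT 1 stood far above the other EC WT libraries for Ryr2. In counts from length-scaled TPM the log2 fold change of Ryr2 was 0.05 (adjusted p = 0.950). In TPM Ryr2 was 0.28 to 0.74 in EC WT and 0.38 to 0.74 in EC KO. The full-length transcript Ryr2-201 held 25.2% to 80.0% of this TPM in EC WT and 6.26% to 21.8% in EC KO, and the retained-intron transcript Ryr2-204 held 4.36% to 42.5% and 33.1% to 49.8%.

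Jph2, Atp2a2 and Slc8a1 were not called, as Ryr2 was not. Jph2 was 60.7, 25.9 and 36.7 CPM in EC WT and 31.7, 6.67 and 7.06 CPM in EC KO. EC KO 1 lay between the EC WT values and the other EC KO libraries were far below, and the log2 fold change was -1.44 (SE 0.62, edgeR adjusted p = 0.143). Without EC KO 1 it was -2.58 (adjusted p = 0.0176). Atp2a2 was 234, 201 and 167 CPM in EC WT and 139, 142 and 155 CPM in EC KO (-0.46, SE 0.15, adjusted p = 0.0693). Slc8a1 was 23.04, 20.02 and 25.2 CPM in EC WT and 21.1, 23.9 and 20.9 CPM in EC KO, with overlap (log2 fold change -0.05, SE 0.13, adjusted p = 0.808).

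Many markers of muscle moved with these genes. The summed level of 10 cardiomyocyte markers was 123, 508 and 177 CPM in EC WT and 4.32, 5.52 and 7.91 CPM in EC KO. Of these, 10 of 10 were called lower. Over all genes tested in aortic ECs, 8.06% were called lower and 18.1% in either direction. EC WT 2, the library with the most of these markers, also had the most Pln, Sln, Casq2 and Hrc, and EC WT 1 the most Ryr2, Jph2 and Cacna1c. Myl2, the light chain of ventricular myosin, was 12.8, 116 and 29.97 CPM in EC WT and 0.0354, 0.268 and 0.0368 CPM in EC KO. The sum of the 4 ventricular markers, Myl2 included, overlapped, at 63.1 to 196 CPM in EC WT and 63.7 to 80.7 CPM in EC KO. Of the 3 tested, 2 were called lower and 1 higher. The 9 skeletal muscle markers summed to 77.1, 21.5 and 106 CPM in EC WT and 2.30, 2.41 and 2.17 CPM in EC KO, with 7 of 8 tested called lower and 1 higher. The 8 smooth muscle markers summed to 6516, 3338 and 5145 CPM in EC WT and 3669, 1181 and 1079 CPM in EC KO, with 4 called lower, and EC KO 1 was the highest of EC KO, as it was for Jph2. The part of cells other than endothelial cells in the differences of the calcium handling genes was not tested.

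Of 10 endothelial markers 4 were called higher, 1 lower and 5 were not called, where 18.1% of all genes were called in either direction and 8.06% lower. These markers summed to 3143, 3380 and 4586 CPM in EC WT and 5467, 6722 and 6275 CPM in EC KO. Fibroblast markers summed to 3743 to 6440 CPM in EC WT and 7316 to 8245 CPM in EC KO, and brown adipocyte markers to 3458 to 5885 and 3318 to 4707 CPM. In EC WT the sums of fibroblast, smooth muscle and brown fat markers thus lay in the range of the endothelial sum or above it.

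**Figure D4:**
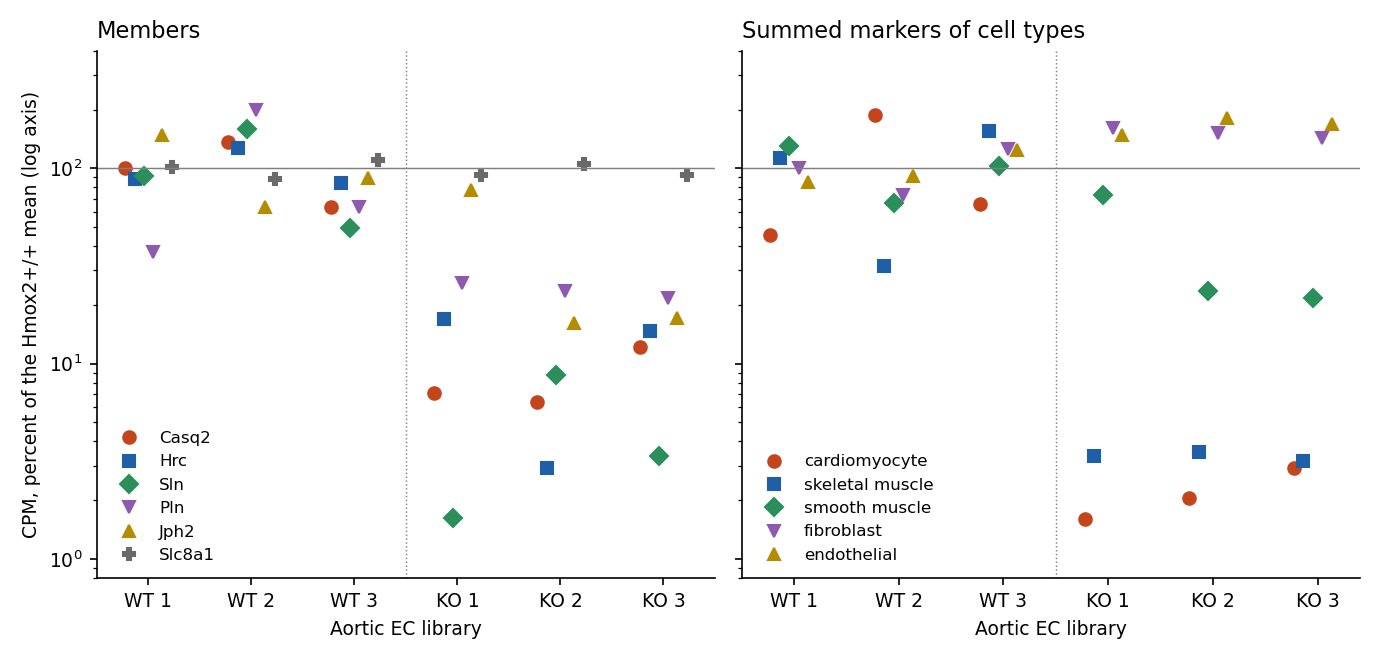
CPM in each aortic EC library as a percent of the Hmox2+/+ mean (log axis), for 6 calcium handling genes (left) and for the summed markers of 5 cell types (right), with points offset sideways. Casq2, Hrc and Sln lie far below the mean in every KO library, as the cardiomyocyte and skeletal muscle sums do, Slc8a1 stays near 100%, and the endothelial and fibroblast sums are above 100%.

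The shares of the pump's forms lay apart between tissues and, in aortic ECs, did not overlap between genotypes, although no share passed its test. In heart tissue SERCA2a (Atp2a2-202) held 95.3% to 97.7% of the Atp2a2 TPM in heart WT and 95.4% to 97.4% in heart KO. In aortic ECs it held 42.2%, 55.6% and 43.2% in EC WT and 25.5%, 19.1% and 19.7% in EC KO. SERCA2b (Atp2a2-201) held 44.6%, 31.8% and 40.3% in EC WT and 52.5%, 56.6% and 57.4% in EC KO. Neither form overlapped between genotypes in aortic ECs, and the exact permutation test gave p = 0.1 for each, the smallest that 3 against 3 libraries allow (adjusted p = 0.343 over 24 transcripts). As levels, SERCA2a was 20.5, 30.9 and 20.2 TPM in EC WT and 9.0, 5.73 and 7.88 TPM in EC KO, while SERCA2b was 21.7, 17.6 and 18.9 TPM in EC WT and 18.5, 17.0 and 23.0 TPM in EC KO. In these estimates SERCA2a, the form with the short end printed above, was lower in EC KO, and the SERCA2b values overlapped. The Atp2a2 gene was not called (edgeR adjusted p = 0.0693), and the levels of its forms were not tested. The division of reads between forms is an estimate of the pseudoaligner, and only their different ends tell them apart.

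**Figure D5:**
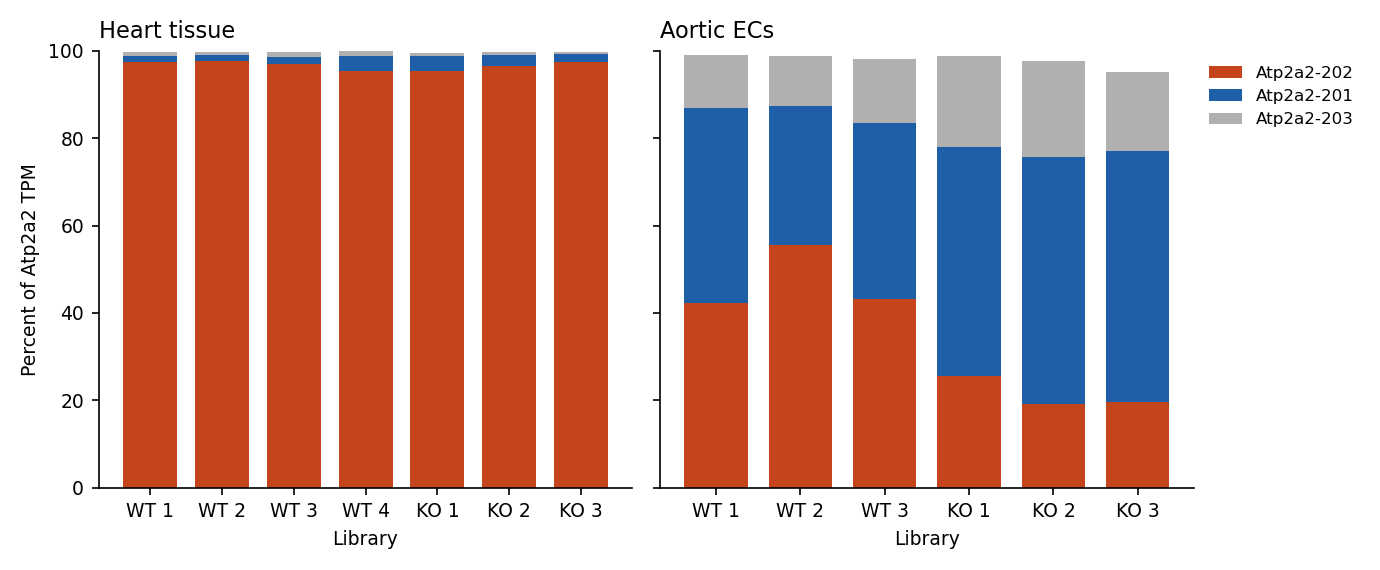
Percent of the Atp2a2 TPM held by each of 3 transcripts in every heart library (left) and aortic EC library (right), as stacked bars from 0 to 100%. SERCA2a (Atp2a2-202, red) fills at least 95.3% of each heart bar, 42.2% to 55.6% of the EC WT bars and 19.1% to 25.5% of the EC KO bars.

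Other transcript shares were also compared, 18 in heart tissue and 24 in aortic ECs, and 0 passed after adjustment in either (two-sided exact permutation test, Benjamini-Hochberg within a tissue). In heart tissue 4 had p = 0.0286, the smallest that an exact test of 4 against 3 libraries allows, and in aortic ECs no such test can go below 0.1. Among the 4, Trdn-204, annotated as a retained intron, held 16.3% to 21.6% of the Trdn TPM in heart WT and 10.6% to 12.4% in heart KO, and Ryr2-206 held 19.3% to 24.6% of the Ryr2 TPM in heart WT and 11.6% to 16.5% in heart KO. Pln-205 held 4.86% to 7.27% and 7.86% to 12.3%, and Cacna1c-226 12.2% to 14.0% and 15.4% to 21.4%. The adjusted p was 0.129 for each.

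Ratios of TPM within a library do not depend on the scaling between libraries, and 9 pairs of these genes were compared. None passed after adjustment in either tissue (two-sided exact permutation test of log2 ratios), with 2 in heart tissue and 0 in aortic ECs at an unadjusted p under 0.05. In heart tissue Casq2 over Ryr2, the buffer over the channel it feeds, was 2.44, 2.49, 2.58 and 2.67 in heart WT and 12.3, 5.05 and 3.91 in heart KO (exact permutation p = 0.0286, adjusted p = 0.129). Hrc over Casq2 was 1.12 to 1.19 in heart WT and 0.499, 0.813 and 0.817 in heart KO, with the same p and adjusted p. Both ratios were narrow in heart WT and did not overlap with heart KO. Ryr2 is in the longest decile of transcript length and Casq2 in a middle one, the heart KO order of their ratio was that of the length trend, and ratios were not corrected for it. Pln over Atp2a2, the brake over the pump, was 0.788 to 0.980 in heart WT and 0.958 to 1.07 in heart KO, with overlap (exact permutation p = 0.171).

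In aortic ECs Sln over Atp2a2 was 0.0239 to 0.0625 in EC WT and 0.000978 to 0.00519 in EC KO, and Casq2 over Ryr2 was 1.28 to 8.97 and 0.244 to 0.323. Neither pair of ranges overlapped, and both had p = 0.1, the smallest possible (exact permutation test, adjusted p = 0.180). The same held for Sln over Pln and Trdn over Ryr2, which were also lower in EC KO. It held too for Ryr2 over Cacna1c, which was higher, at 0.284 to 0.505 in EC WT and 0.511 to 1.53 in EC KO. Pln over Atp2a2 was 0.0688, 0.422 and 0.183 in EC WT and 0.0605 to 0.0851 in EC KO, so EC WT 1 lay among the EC KO values. Slc8a1 over Atp2a2 was 0.0585 to 0.104 and 0.0705 to 0.0796, with overlap (exact permutation p = 0.8).

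The difference between the tissues was tested as a tissue by genotype interaction over all 13 libraries, in which 28.8% of 15938 genes were called in either direction. Of the 10 calcium handling genes 6 were called, and each had the higher log2 fold change in heart tissue. Heart minus aortic EC was 4.19 for Casq2 (SE 0.39, edgeR adjusted p = 2.78e-05), the gene that was higher in heart KO and lower in EC KO. It was 3.01 for Hrc (SE 0.41, adjusted p = 3.41e-04), 1.72 for Trdn (SE 0.35, 0.00321), 1.90 for Pln (SE 0.58, 0.0261) and 1.24 for Cacna1c (SE 0.33, 0.0125). For Pln it was 0.92 without EC WT 2 (adjusted p = 0.0435), and its call was lost without EC KO 2 (0.0511) or EC KO 3 (0.0631). For Sln it was 7.61 (SE 1.81, adjusted p = 0.00730), but without heart KO 3 it was 3.79 (adjusted p = 0.0848). Ryr2, Atp2a2, Jph2 and Slc8a1 did not pass, with differences of 0.84, 0.21, 1.34 and -0.34.

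In aortic ECs 46 of the 48 other calcium handling genes were tested, and 8 were called lower and 4 higher, where 8.06% of all genes were called lower and 18.1% in either direction. Without EC KO 3, Mcub alone was called, and without EC WT 1, EC KO 1 or EC KO 2 there were 4 calls. The largest falls were those of Atp2a1 and Casq1, genes of skeletal muscle. Atp2a1, the pump of fast skeletal muscle (SERCA1), was 12.4, 2.67 and 18.5 CPM in EC WT and 0.354, 0.613 and 0.441 CPM in EC KO (log2 fold change -4.57, edgeR adjusted p = 0.00868). Casq1 was 24.4, 9.32 and 13.04 CPM in EC WT and 3.44, 1.34 and 0.736 CPM in EC KO (-3.08, adjusted p = 0.0154). Atp2a1 followed the skeletal marker sum over EC WT libraries, lowest in EC WT 2, where Pln, Sln, Casq2 and Hrc were highest.

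Genes of calcium release in non-muscle cells were also among them. Itpr2, an inositol trisphosphate receptor, was 187, 151 and 125 CPM in EC WT and 61.5, 85.5 and 79.8 CPM in EC KO (-1.03, edgeR adjusted p = 0.0136). Tmem38b, a potassium channel of the store, fell (-0.81, adjusted p = 0.0280), as did S100a1 (-0.81, adjusted p = 0.0322) and Srl, which encodes sarcalumenin of the muscle store (-1.06, adjusted p = 0.0239). Srl lies 184.5 kb from Hmox2 on chromosome 16. Mcub was 1.96, 2.14 and 2.41 CPM in EC WT and 9.07, 5.59 and 7.76 CPM in EC KO (1.78, adjusted p = 0.00626), higher in the Hmox2-/- libraries of both tissues. Ryr3 rose (2.37, adjusted p = 0.0307), from 2 to 8 counts per library in EC WT to 15 to 25 in EC KO. Strit1 was at 0 in 5 of 6 aortic EC libraries.

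The tested genes whose log2 CPM varied most like a calcium handling gene over the libraries of a tissue were named by the root mean square difference after centring. In the 7 heart libraries those nearest to Ryr2 were Abl2 (0.0382), Xirp2 (0.0612) and Ago2 (0.0681), all with mean transcript lengths of 7591 to 12843 bases, in the range of its own 12391. Nearest to Pln were Zfr (0.0226), Ate1 (0.0241) and Stxbp3 (0.0278), and nearest to Atp2a2 were Foxo1 (0.0259), Acsl1 (0.0285) and Agtpbp1 (0.0332). In the 6 aortic EC libraries those nearest to Sln were Dhrs7c (0.189), the atrial myosin light chain Myl4 (0.201) and Casq2 (0.219), which is itself one of the 10. Nearest to Pln were Ighg2c (0.109), Gm4739 (0.296) and Lmod2 (0.298), nearest to Ryr2 were Gm19040 (0.111), Osr2 (0.132) and Garem1 (0.143), and nearest to Atp2a2 were Mcee (0.0247), Mief2 (0.0355) and Mul1 (0.0436). With so few libraries that fall into 2 groups, many genes share such a pattern.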

How the data were processed

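Oligo-dT selected, directional RNA libraries of mouse heart tissue and aortic ECs were pseudoaligned by the authors with kallisto 0.44.0, per the labels' processing notes. The estimated counts and TPM values per transcript were deposited by the authors without pooling or normalization between libraries. The deposited lengths and effective lengths were used for the length-scaled TPM. The notes name mm10 and GRCh38.p13, whereas the methods name GENCODE M32 on GRCm39. The index itself was not compared here. Of 118489 listed transcripts 97.2% were matched to GENCODE M39 by stable identifier, giving 36109 genes, and the remainder, 0.755% to 1.01% of counts, was not used.

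Estimated counts were summed per gene, rounded, filtered (filterByExpr, minimum count 10), TMM-normalized and tested with the quasi-likelihood test of edgeR 4.0.16 in R 4.3.3, Hmox2-/- against Hmox2+/+ within each tissue, with a call at an adjusted p of at most 0.05 and a 2-fold criterion beside it, as in the study's methods. The interaction was fitted over all 13 libraries. The biological coefficient of variation was 0.149 in heart tissue and 0.241 in aortic ECs. Steps were tested on simulated data. Log2 TPM ratios used a pseudocount of 0.01 TPM. Up to 4.40% of a gene's 31-base words are shared with other genes (Atp2a2, the highest of the 10). Default pseudoalignment does not use the strand, so overlapping genes can share reads.

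Named genes were the 10, Hmox2, up to 8 called genes of the wider list per tissue with the largest changes, and the 3 nearest patterns of Ryr2, Pln, Atp2a2 and Sln. Marker genes were given as sums, and those named were the defining ones at or near 0 or that moved with a result. The genes and lists were chosen with earlier results of these data known. Deviations of same-numbered libraries correlated at -0.05 to 0.18 across genes. Other pairs were not computed, so these values do not show whether replicate numbers pair libraries. Alternatives were DESeq2 1.42.0, upper-quartile normalization, no filter, length-scaled TPM, an offset for length and GC content, leaving out mitochondrially encoded genes, protein-coding genes alone, 1 fit of all libraries, a replicate block, libraries with Ddx3y above 10 CPM, and leaving out each library.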

Additional observations from a re-analysis of the deposited data

Results flagged for a closer look

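Pln stood apart in 1 heart library. It was 5266 CPM in heart WT 2 and 6136 to 6188 CPM in the other heart WT libraries, a gap of 0.943 of the group's range, above the limit of 0.829 for 4 libraries. The 10 calcium handling genes were each tested this way in heart WT, and chance gives about 1 such value in 20 groups.

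The genotype difference differed between heart tissue and aortic ECs for 6 genes, by the test of the difference itself given above. Heart minus aortic EC was 1.90 for Pln, 7.61 for Sln, 4.19 for Casq2, 1.72 for Trdn, 1.24 for Cacna1c and 3.01 for Hrc on the log2 scale. Summed cardiomyocyte markers were 4.32 to 7.91 CPM in EC KO, 123 to 508 CPM in EC WT and at least 48118 CPM in every heart library, and their part in these differences was not tested.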

How the results depend on the processing

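The calls on the calcium handling genes in heart tissue, 2 as reported, were 4 with DESeq2 (Ryr2 and Atp2a2 gained), 4 with no filter (Ryr2 and Sln gained), and 1 (Casq2) with length-scaled TPM, with the offset for length and GC content and with the replicate block. Without 1 library they were 1 to 6, 6 without heart KO 3 (Ryr2, Atp2a2, Pln and Cacna1c gained) and 1 without heart WT 1, heart WT 2, heart WT 4, heart KO 1 or heart KO 2 (Slc8a1 lost). In aortic ECs, 6 as reported, they were 0 with the libraries above 10 CPM of Ddx3y and 2 to 6 without 1 library, 4 without EC KO 2 (Pln and Trdn lost). The replicate block gave 7 (Jph2 gained, adjusted p = 0.0123). The interaction calls were 5 to 7 without 1 library, and 5 with the replicate block within genotype (Pln lost, adjusted p = 0.0989). Of the 48 other genes, those called in aortic ECs were 20 with DESeq2, 21 in 1 fit of all libraries, 0 with the libraries above 10 CPM of Ddx3y (10 at an unadjusted p under 0.05), and 1 to 16 without 1 library, 1 without EC KO 3 and 4 without EC WT 1, EC KO 1 or EC KO 2. In heart tissue they were 18 to 25 without 1 library. Ratios and transcript shares gave 0 calls throughout, which says nothing of their stability, since 3 against 3 libraries, and heart tissue without 1 library, cannot pass.

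Values that changed sign were, in heart tissue with the offset, Pln 0.00521, Trdn 0.0655, Jph2 0.0305, Cacna1c 0.0159 and Ppp1r3a 0.00464; in aortic ECs, Ryr2 0.0459 with length-scaled TPM and Slc8a1 0.0182 with upper-quartile normalization and -0.135 to 0.0277 without 1 library, above 0 without EC WT 3; and in the interaction, Slc8a1 0.0599 with the offset. Of all values of single genes under an alternative, 627 kept their direction and side of the threshold, 74 lost and 20 gained a call, and 9 changed sign. The cause was not tested. Depth limits Sln in heart tissue (0 to 5 counts in 6 of 7 libraries) and Casq2, Trdn and Sln in EC KO (1 to 21 counts).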
